A study of Mus musculus with 12 samples.

Results

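The Hedgehog genes described here are the 3 secreted ligands Shh, Ihh and Dhh, the receptor Ptch1, the membrane transducer Smo, the inhibitor Sufu and the transcription factors Gli1, Gli2 and Gli3. They were chosen by name, with earlier results of these data known. Their probes were found by the accession that the array files give for each probe. All 9 genes had a probe, and they make up 9 of the 20144 genes and 11 of the 39429 probes on the array, since Smo and Sufu have 2 probes each. Dunn is a mouse osteosarcoma cell line of low metastatic potential, and LM8 is a metastatic line that was selected from it in animals. RNA was taken from 4 groups, Dunn cells at passage 25 and at passage 86 and LM8 cells at passage 24 and at passage 91, with 3 cultures and 3 arrays per group. All cells grew in the same medium with 10% fetal calf serum and received no treatment, and late cells descended from early cells of the same line. There is 1 parental and 1 derived line, so the p-values below measure the spread between cultures and arrays and not between independently selected lines.

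Hedgehog ligands are secreted proteins that bind Ptch1 on a receiving cell. Without ligand Ptch1 holds Smo inactive. With ligand Smo is released, Gli2 and Gli3 are turned into activators or are no longer cut into repressors, Sufu lets go of them, and the genes Gli1, Ptch1 and Hhip are transcribed, which makes Gli1 and Ptch1 the usual readouts of the pathway. In bone, Ihh from chondrocytes that are becoming hypertrophic drives cartilage growth and the formation of osteoblasts, the cells whose tumours the labels describe here as osteoblastic.

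The promoters of the ligand that differed between the lines and of the receptor that serves as its readout are shown so that a reader can see what precedes each gene, with the first transcribed base of the RefSeq model in a capital. Both are from RefSeq on the mouse assembly GRCm38.p6, each 251 bases long and on the minus strand, at chr1:74951672-74951922 for Ihh and at chr13:63565735-63565985 for Ptch1, whose window lies at a start inside the annotated gene.
Ihh: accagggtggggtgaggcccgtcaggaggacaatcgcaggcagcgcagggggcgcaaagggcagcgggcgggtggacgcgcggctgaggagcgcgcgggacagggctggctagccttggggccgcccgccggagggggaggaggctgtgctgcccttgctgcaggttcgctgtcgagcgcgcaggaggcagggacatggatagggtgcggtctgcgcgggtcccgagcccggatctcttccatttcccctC
Ptch1: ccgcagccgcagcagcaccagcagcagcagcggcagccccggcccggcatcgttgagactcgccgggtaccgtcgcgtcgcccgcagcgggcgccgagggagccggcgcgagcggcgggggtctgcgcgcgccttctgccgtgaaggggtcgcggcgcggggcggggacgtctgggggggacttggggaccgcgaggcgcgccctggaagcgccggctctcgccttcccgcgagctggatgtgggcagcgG
Windows were given for 7 of the 9 genes, with none in the table for Shh and Gli1. The 9 letters GACCACCCA, known as the Gli binding consensus, were searched on both strands from 250 bases before the start to the end of each window of 300 bases. They were found in 0 of the 7 windows, and in 0 of 7 when 1 mismatch was allowed, while 0.253% of all 32851 windows held them exactly and 6.74% with at most 1 mismatch. This says only that the letters are not in these windows. G and C made up 72.7% of the Ihh window and 76.3% of the Ptch1 window, against a median of 52.7% over all windows.

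The values below are the processed signal of the array scanner, on the log2 scale and minus the 75th percentile of the same array, called the scaled log2 signal. The scanner software also marks a spot as well above background or not. A gene was called higher or lower where limma's adjusted p was under 0.05 and the signal was well above background on at least 2 of every 3 arrays of the brighter group. Between 39.0% and 59.6% of probes had this mark on the 6 Dunn arrays and between 53.7% and 59.1% on the 6 LM8 arrays. Replicate 1 of late Dunn stood apart, with 3162 probes well above background on that array only, against 12 to 546 on each other array. Of 10 osteoblast markers, 9 had a matched probe, and Runx2, Sp7, Col1a1 and Ibsp were well above background on 12 of 12 arrays. Of 5 endothelial markers, 2 (Kdr and Vwf) were so on 12 of 12 arrays and 1 (Cdh5) on 0 of 12. Of 5 markers of macrophages and other blood cells with a matched probe, 2 (Csf1r and Cd3e) were so on 12 of 12 and 0 on none. Of 5 epithelial markers, 0 were so on all arrays and 2 (Cdh1 and Krt8) on none. With passages pooled, the median difference of LM8 minus Dunn was -0.81 over all probes and -0.39 over the 12754 probes that passed the background mark on all 12 arrays (the bright probes), so a difference of 0 lies above the middle of the array.

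Indian hedgehog was the ligand that separated the lines. Ihh was higher in LM8 than in Dunn cells at both passages. Its scaled log2 signal was -4.64, -5.95 and -6.07 in early Dunn cells and -5.69, -5.10 and -4.99 in late Dunn cells. In LM8 cells it was -3.15, -2.71 and -2.90 early and -3.76, -3.34 and -3.49 late. Each of the 6 LM8 arrays lay above each of the 6 Dunn arrays, and this also held before any scaling, with signals of 3.76 to 24.6 in Dunn and 76.1 to 175 in LM8. The probe was well above background on 0 of 3 early Dunn arrays, 2 of 3 late Dunn arrays and 6 of 6 LM8 arrays. In these bulk cultures, fewer cells with the transcript and less transcript per cell cannot be told apart.

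With passages pooled, Ihh was higher in LM8 by 2.18 on the log2 scale (SE 0.29, 95% interval 1.54 to 2.81), with a limma adjusted p of 0.000508. At early passage the difference was 2.63 (SE 0.46, adjusted p = 0.0319) and at late passage 1.73 (SE 0.29, adjusted p = 0.0468). Because the early Dunn arrays did not measure the probe above background, the early value is given as a bound, and Ihh was at least 2.99-fold higher in early LM8 than in early Dunn. The bound sets the mean of the LM8 arrays against the dimmest signal with the background mark on each Dunn array, or the probe's own signal where that was higher. Set against the Dunn arrays in the same way, of which 2 of 6 measured the probe, the pooled difference was 1.41. Within slides, each of which held 1 array of each group, LM8 was above Dunn on 3 of 3 slides at early passage (by 1.48 to 3.23) and on 3 of 3 at late passage (by 1.50 to 1.93). With the slide as a block, the adjusted p was 0.00166 with passages pooled, 0.0808 at early passage and 0.133 at late passage, so the calls at single passages were lost and the pooled call was kept. Leaving out 1 array at a time, the pooled difference ran from 2.05 to 2.33 and was called in 12 of 12 fits. At single passages the call rested on the arrays present. At early passage Ihh was called in 2 of 6 such fits, those without replicate 1 or 2 of Dunn (differences 2.37 to 3.09, highest adjusted p 0.161), and at late passage in 1 of 6, that without replicate 1 of Dunn (1.51 to 1.86, highest adjusted p 0.255). Each group had its own position on the slides, so position and group cannot be told apart. Of 7 chondrocyte markers, 0 were called higher in LM8 with passages pooled and 2 lower (Col2a1 by -0.88 and Comp by -2.30), against 5.49% and 17.5% of all genes. Between the LM8 passages 1 of the 7 was called, higher in late cells (Col10a1, 2.29, adjusted p = 0.00772), where 2.54% of all genes were called in either direction. The part of these markers in the Ihh difference was not tested.

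Between the passages of LM8, the scaled Ihh values did not overlap, though the adjusted p missed the threshold. Late LM8 cells were lower than early ones by 0.59 to 0.63 on each of the 3 slides. The difference of -0.61 (SE 0.22, 95% interval -1.13 to -0.09) had an unadjusted limma p of 0.0283 and an adjusted p of 0.283. In Dunn cells the change with passage was 0.29 (95% interval -0.96 to 1.54), up on 2 of 3 slides. The test of the difference between these 2 changes gave -0.90 (95% interval -2.12 to 0.32, adjusted p = 1). In the order of the group means, early LM8 stood above late LM8, then late Dunn and early Dunn. The scaled values of late Dunn and early Dunn overlapped, and those of early LM8 and late LM8 did not. Before scaling the LM8 passages overlapped too, with signals of 88.6 to 175 early and 76.1 to 168 late. The unscaled change in LM8 was -0.22 (limma adjusted p = 0.831). Set against the median of the bright probes, the scaled change in LM8 was -0.52.

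The other 2 ligands were near the background. Dhh, the ligand of the testis and of Schwann cells, was well above background on 1 of 6 Dunn arrays and 5 of 6 LM8 arrays. Its scaled log2 signal ran from -8.43 to -3.92 in Dunn with a median of -6.43, and from -6.47 to -4.77 in LM8 with a median of -5.24. The brightest of the 12 arrays was late Dunn replicate 3, so the lines overlapped, and the pooled difference of 1.04 (95% interval -0.36 to 2.44) had an adjusted p of 0.189.

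Shh, the ligand of limb and neural tube patterning, was well above background on 1 of 12 arrays, which was late Dunn replicate 1. The array design carries its probe in 10 spots. On that array all 10 spots were well above background, with signals from 52.4 to 107.9, while on the other 11 arrays the highest single spot reached 31.5 and the medians of the 10 spots lay between 2.20 and 8.65. This is the array on which 3162 probes were well above background alone, and the part of that in the Shh signal was not tested. The adjusted p for lower Shh in LM8 was 0.0404 (difference -2.08), but the gene was not called, because the brighter line did not measure it above background. Without the 4 arrays of slide 1 the difference was -1.10 with an adjusted p of 0.0989.

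**Figure D1:**
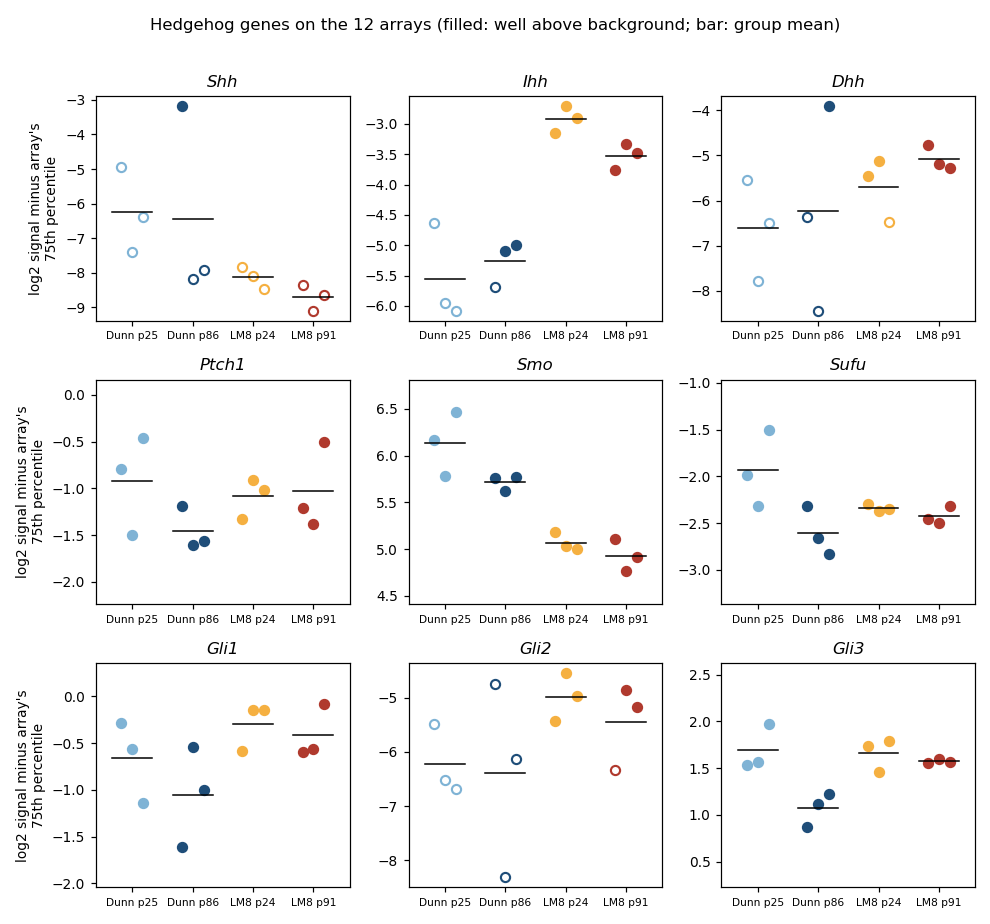
Scaled log2 signal (vertical axis, with its own range in each panel) of the 9 genes on the 12 arrays, grouped by line and passage (p25 to p91) on the horizontal axis. Each point is 1 array, filled where the probe was well above background, and the bar is the mean of 3 arrays. The Ihh panel shows all 6 LM8 arrays above all 6 Dunn arrays, and the Ptch1 panel shows overlapping groups.

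Ptch1, which is both the receptor and a target, did not separate the lines. Its scaled log2 signal was -0.79, -1.50 and -0.47 in early Dunn, -1.19, -1.61 and -1.56 in late Dunn, -1.33, -0.91 and -1.02 in early LM8 and -1.21, -1.38 and -0.51 in late LM8. The range in LM8 lay inside the range in Dunn. The probe was well above background on 12 of 12 arrays. The pooled difference was 0.13 (95% interval -0.42 to 0.67, adjusted p = 0.68), and within slides LM8 was higher on 1 of 3 at early and 2 of 3 at late passage. The upper end of the interval is below the lower end of that for Ihh, although the difference between the 2 genes' changes was not itself tested.

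Gli1, the other standard target and itself an activator, had a higher mean in LM8 without passing the test. Its values were -0.29, -0.56 and -1.14 in early Dunn, -1.61, -0.55 and -1.00 in late Dunn, -0.59, -0.14 and -0.15 in early LM8 and -0.59, -0.56 and -0.08 in late LM8. Dunn spread over a wider range, and the groups overlapped. The pooled difference was 0.50 (95% interval -0.03 to 1.04), or 1.42-fold, with an adjusted p of 0.103. LM8 was higher on 2 of 3 slides at each passage, and in 12 of 12 fits that left out an array the difference stayed positive (0.35 to 0.62) with 0 calls.

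Smo, which carries the signal across the membrane, was lower in LM8 after scaling. Its main probe gave 6.17, 5.79 and 6.46 in early Dunn, 5.76, 5.62 and 5.77 in late Dunn, 5.18, 5.03 and 5.00 in early LM8 and 5.11, 4.76 and 4.91 in late LM8. Each LM8 array lay below each Dunn array. The pooled difference was -0.93 (SE 0.19, adjusted p = 0.00711), the second probe gave -1.11 (SE 0.23, adjusted p = 0.00789), and LM8 was lower on 3 of 3 slides at both passages. At single passages Smo was not called, with an adjusted p of 0.0739 early and 0.143 late. The unscaled signals overlapped, at 22306 to 41298 in Dunn and 28579 to 46115 in LM8, and no spot was saturated. Without scaling the difference was 0.26 (adjusted p = 0.486), so the lower Smo was seen only after scaling. The scaled difference lay close to the pooled median of all probes, which was itself -0.81. Set against the median of the bright probes, Smo was -0.54. Without the 4 arrays of slide 1 the scaled difference was -0.98 and Smo was not called (adjusted p = 0.0619).

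Sufu, which binds Gli proteins and restrains them, had 2 probes that disagreed. The brighter one was well above background on 12 of 12 arrays and gave a pooled difference of -0.11 (95% interval -0.60 to 0.38, adjusted p = 0.686). The other gave -4.54 to -2.86 in Dunn and -2.64 to -2.54 in LM8, and a difference of 1.15 (SE 0.26, adjusted p = 0.0119). The lines did not overlap on that probe and did on the other, so no direction is given for the gene.

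Gli2, the main activator of the pathway, was dim. It was well above background on 0 of 6 Dunn arrays and on 5 of 6 LM8 arrays, with scaled log2 signals from -8.31 to -4.74 (median -6.33) in Dunn and from -6.33 to -4.55 (median -5.07) in LM8. The pooled difference was 1.10 (95% interval -0.04 to 2.23, adjusted p = 0.0969). Under quantile normalization it was 2.11 (adjusted p = 0.00469) and without scaling 2.28 (adjusted p = 0.0144). With array weights the adjusted p was 0.0414, and Gli2 was called higher under these 3 of 13 alternatives. The dimmest and the brightest Dunn arrays were late replicates 2 and 1. Without the 4 arrays of slide 1 the difference was 2.03 and Gli2 was called higher in LM8 (adjusted p = 0.0301). Since Dunn never measured it above background, the fold has only a bound, and at neither early passage nor with passages pooled did the LM8 mean reach above the floor of the Dunn arrays. At late passage the bound was at least 1.02-fold.

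Gli3, mostly a repressor in the absence of ligand, was bright on all arrays. Its values were 1.53, 1.56 and 1.98 in early Dunn, 0.87, 1.12 and 1.22 in late Dunn, 1.73, 1.46 and 1.79 in early LM8 and 1.55, 1.60 and 1.56 in late LM8. Late Dunn lay below the 3 other groups without overlap. Late Dunn was below early Dunn on 3 of 3 slides (by 0.44 to 0.75), yet the change of -0.62 (SE 0.31) had an unadjusted p of 0.0932 and an adjusted p of 0.766 in limma. The unscaled change was 0.36, with overlapping signals of 978 to 1540 in early and 1220 to 1824 in late Dunn. The lower Gli3 in late Dunn was thus seen only after scaling. Set against the median of the bright probes, the change was -0.33. The pooled difference between the lines was 0.24 (95% interval -0.21 to 0.68, adjusted p = 0.342).

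Of the 9 genes, 1 was called higher in LM8 with passages pooled (Ihh), where 5.49% of all 19972 genes tested were called higher, and 1 was called lower (Smo), where 17.5% of all genes were. At early passage 1 of 9 was called higher, against 1.32% of all genes, and at late passage 1 of 9, against 1.21%. The comparisons of single passages use the same arrays as the pooled one and are not further evidence. Between passages 0 of 9 were called in Dunn, where 0.00501% of genes were called in either direction (1 gene), and 0 of 9 in LM8, where 2.54% were. Unadjusted p-values under 0.05 were reached by 0 of 9 in Dunn and by 1 of 9 in LM8, which was Ihh, and with the same rule on the background mark by 6.53% and 10.3% of all genes. The change with passage differed between the lines for 0 of 9 genes, with 0 unadjusted p-values under 0.05, against 0.616% of all genes called by limma.

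**Figure D2:**
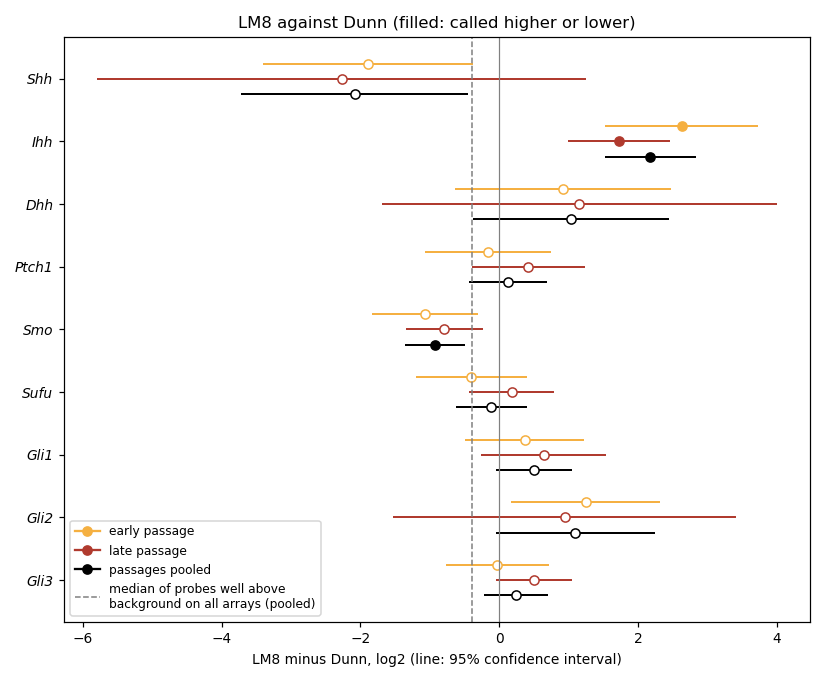
Difference of LM8 minus Dunn on the log2 scale (horizontal axis) for the 9 genes (rows), at early passage, late passage and with passages pooled. Lines are 95% confidence intervals from limma, filled points are genes called, and the dashed line is the pooled median of the bright probes (-0.39). The Ihh intervals lie to the right of 0 in all 3 comparisons and those of Ptch1 and Gli1 include 0.

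Whether the targets followed the ligand depended on how the arrays were put on a common scale. When each array was scaled by the 75th percentile of the bright probes instead of all probes, the pooled difference of Gli1 was 0.87 (adjusted p = 0.0401) and that of Gli3 0.60 (adjusted p = 0.026), and both were called. Under that scaling 3 of the 9 genes were called higher, against 7.38% of all genes, and 1 was called lower, against 5.95%. Ptch1 reached 0.49 with an adjusted p of 0.111 and was not called. Without scaling, Ptch1 was 1.32 and Gli1 1.69 higher in LM8 (adjusted p = 0.00964 and 0.00967), and the Ptch1 signals did not overlap, at 183 to 292 in Dunn and 314 to 872 in LM8. In the unscaled values, however, the median of the bright probes was also higher in LM8, by 0.80. Set against that median, the difference was 0.51 for Ptch1, 0.89 for Gli1, 0.62 for Gli3, -0.54 for Smo and 2.56 for Ihh, and these 5 values were the same to within 0.01 under each of the 3 scalings, since each scaling shifts whole arrays. Under quantile normalization Gli1 was 0.52 (adjusted p = 0.17) and Ptch1 0.09 (adjusted p = 0.801). Ihh was called under the first 4 of these scalings and not after the normexp background correction, where it was -0.23 (adjusted p = 0.598). That correction adds a constant of 50 to every signal, which is more than any Dunn signal of Ihh. After it the pooled median was -1.16 over all probes and -0.32 over the bright probes.

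**Figure D3:**
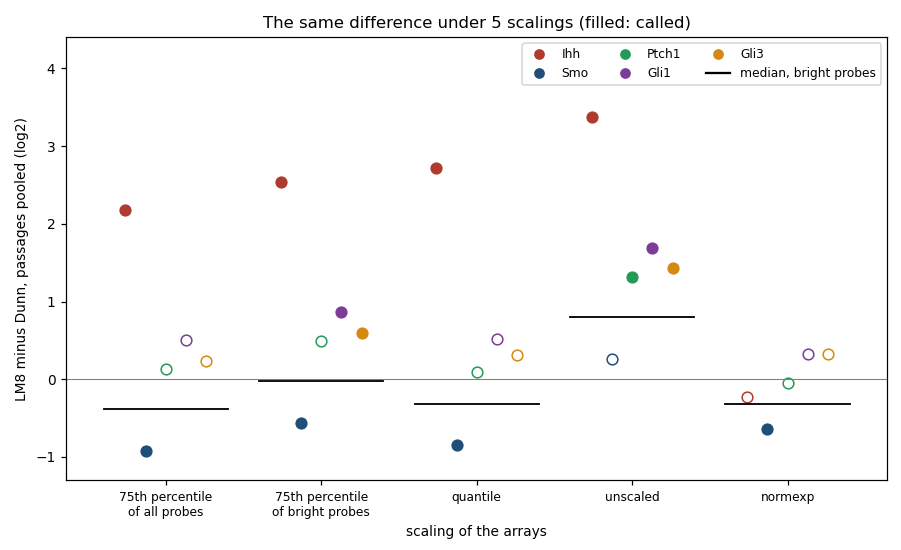
Pooled difference of LM8 minus Dunn (vertical axis, log2) for Ihh, Smo, Ptch1, Gli1 and Gli3 under 5 ways of scaling the arrays (horizontal axis). Filled points were called and the black bar is the median over the bright probes. Ihh stands farthest above the bar under 4 scalings and at -0.23 under normexp, and Smo lies below the bar under all 5.

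Beyond these 9 genes, 49 other genes of the pathway were examined, and all 49 had a probe. With passages pooled, 5 were called higher in LM8 and 6 lower, against 5.49% and 17.5% of all genes, with a median difference of -0.39, against -0.69 over all genes. Between passages 0 of 49 were called in Dunn, against 0.00501% of all genes, and 1 of 49 in LM8, against 2.54%. The 1 gene was Jag2 (-1.21, SE 0.18, adjusted p = 0.0194).

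Among 6 genes for maturation and release of the ligand, Scube2, a secreted protein that helps release Hedgehog from the cell, was lower in LM8 by 1.62 on the log2 scale, that is a difference of -1.62 (SE 0.24, adjusted p = 0.000923). Its mean scaled log2 signal was 1.59 in early Dunn, 1.05 in late Dunn, -0.56 in early LM8 and -0.05 in late LM8. Scube2 was called lower at early passage (-2.14, adjusted p = 0.0153) and not called at late passage (-1.10, adjusted p = 0.141). Scube3, well above background on 12 of 12 arrays, differed the other way and was not called (0.64, adjusted p = 0.0585). Disp1 and Hhat, which release the ligand and attach its palmitate, were not called (0.76, adjusted p = 0.16, and 0.19, adjusted p = 0.776).

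Among 6 co-receptors and antagonists, 1 was called higher and 0 lower with passages pooled, against 5.49% and 17.5% of all genes. Boc, a co-receptor at the cell surface, was higher by 0.86 (SE 0.33, adjusted p = 0.0498), just under the threshold. It was not called at early passage (0.54, adjusted p = 0.284) or at late passage (1.17, adjusted p = 0.269). Hhip, which traps the ligand and is a target, was well above background on 0 of 12 arrays.

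Of 22 genes for transduction at the cilium and control of Gli, 3 were called higher and 2 lower, again against 5.49% and 17.5% of all genes. Grk2, the kinase that phosphorylates Smo, rose by 0.99 (SE 0.34, adjusted p = 0.0346), Cul3, a scaffold of ubiquitin ligases, by 0.85 and Prkar1a, the regulatory subunit of protein kinase A, by 0.79. Kif7, the ciliary kinesin that organises Gli at the tip, was lower (-0.63, adjusted p = 0.0223), as was Btrc, which directs the processing of Gli3 (-0.67, adjusted p = 0.0286). Neither difference lay below the pooled median of all genes (-0.69), but both lay below that of the bright probes (-0.39).

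Of 16 genes known as targets, Hhip included, 1 was called higher and 3 lower with passages pooled, shares near the 5.49% and 17.5% of all genes, with a median of -0.98. Mycn, a growth regulator driven by Hedgehog in neural progenitors, had the largest difference. It had means of -0.70 ± 0.59, -0.71 ± 0.09, 1.68 ± 0.12 and 2.10 ± 0.17 in early Dunn, late Dunn, early LM8 and late LM8 (SD, 3 arrays each), a pooled difference of 2.60 (SE 0.22, adjusted p = 1.12e-05), and calls at both passages (2.39 and 2.81). The lower genes were Bcl2 (-0.80), Foxm1 (-0.76) and Nkx2-2 (-0.73), which act in survival, mitosis and neural patterning. These 3 differences lay close to the pooled median of all genes (-0.69) and below that of the bright probes (-0.39). Ccnd2, cyclin D2, had a mean of -1.36 in early Dunn and of 2.89 in late Dunn, 1.97 in early LM8 and 2.44 in late LM8. Between the Dunn passages the difference was 4.24 (adjusted p = 0.0906), which was not called. Ccnd2 was called higher in LM8 at early passage (3.33, SE 0.34, adjusted p = 0.00472) and not at late passage (-0.45, adjusted p = 0.272), and its change with passage differed between the lines (-3.78, SE 0.37, adjusted p = 0.00231). The 5 genes of this list that were well above background on 0 of 12 arrays include Bmp2 and Sfrp1.

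**Figure D4:**
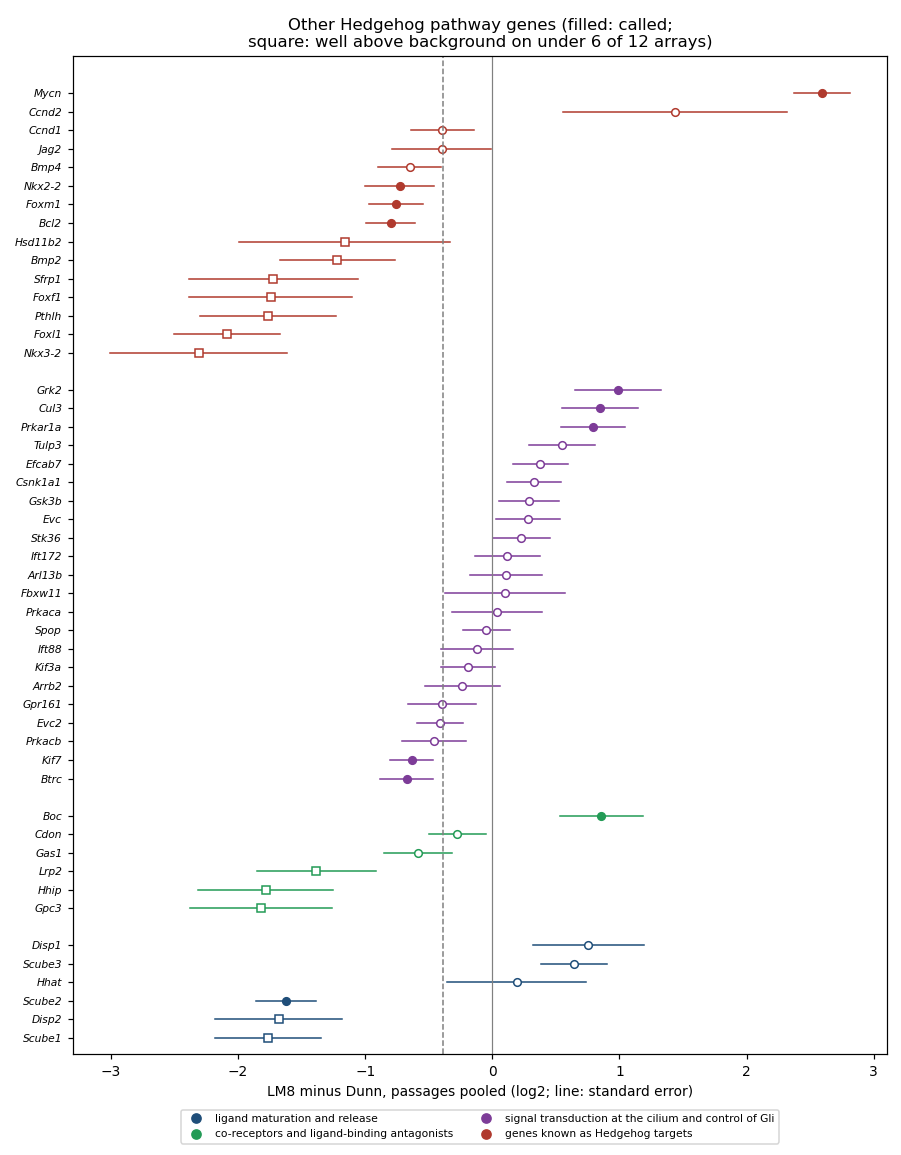
Pooled difference of LM8 minus Dunn (horizontal axis, log2) for the 49 other pathway genes (rows), coloured by list, with the standard error as a line. Filled points were called, squares mark genes well above background on fewer than 6 of the 12 arrays, and the dashed line is the median of the bright probes (-0.39). Mycn lies farthest to the right among the filled points and Scube2 farthest to the left.

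To see which other genes had a pattern across the arrays like that of the ligand and its targets, scaled log2 signals were correlated over the 12 arrays among 11774 genes. The highest Pearson r with Ihh were those of Arhgap9 (0.957), Ptgfrn (0.951) and Scn3a (0.948). With Gli1 they were Phf2 (0.883), Slc9a5 (0.878) and Lgals8 (0.870), and with Ptch1 Greb1 (0.855), Pip4k2a (0.840) and Nkapl (0.832). The 12 arrays share 4 groups and 3 slides, so these values describe the pattern and are not tests.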

How the data were processed

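RNA of 12 cultures (3 per group) was hybridised to Agilent single-colour mouse arrays. The deposited files of each array give a spot's processed signal, an intensity from which Agilent Feature Extraction (10.7.3, per the labels) had subtracted background, unscaled. The authors' deposited summary of the 12 arrays holds the same intensity rounded to 3 significant digits. Authors' comparisons were not used.

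Control spots and outlier spots were left out, 43020 spots were averaged to 39429 probes, and each array's 75th percentile of log2 signals was subtracted. Accessions of 26581 probes (67.4%) matched RefSeq genes. A gene's values are those of its probe with the highest mean signal. Groups were compared with limma 3.58.1 (R 4.3.3, data.table version 1.17.8, jsonlite 2.0.0) over their own arrays, without a block, with Benjamini-Hochberg adjustment over all probes. The interaction used all 12 arrays. The limma comparisons, apart from the interaction, were tested on simulated data. These had independent noise on each array and changes only in probes well above background, unlike arrays that share a slide or dim genes. The number of arrays limits the precision.

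The replicate number marks the slide. Deviations from group means correlated over 0.1 in 12 of 18 pairs of one slide (-0.246 to 0.679). The slide was nevertheless a block only as an alternative, so the main p-values leave this sharing within slides out. For normexp (offset 50) the median spot signal was used, as the files hold no mean signal. The 9 genes and all gene lists were chosen with earlier results of these data known. Named genes outside the 9 are, by rule, up to 4 called genes per direction of each list, plus 3 most similar genes of Ihh, Gli1 and Ptch1; endothelial, blood cell and epithelial markers and genes given without a call were named after their values were seen. 1 item of the pathway lists is not reported here and is left out of their counts. The labels name RNeasy for RNA extraction and the methods another reagent.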

Additional observations from a re-analysis of the deposited data

How the results depend on the processing

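Counts of called genes among the 9 moved with the setting. Shares of all genes called are given above only for the main setting and, pooled, for the 75th percentile over the bright probes. The counts under the other settings have no such share beside them and describe the settings, not the 9 genes. In the unscaled table the pooled median of the bright probes was itself 0.80 higher in LM8. With passages pooled (2 called), 4 were called with the 75th percentile over the bright probes, 7 in the deposited table without scaling, 3 each with quantile normalization and array weights (Gli2 added), with the mean of a gene's probes (Sufu added) and without the rule on background (Shh added), and 1 each with normexp, with a floor on dim signals and at the methods' threshold of a 2-fold change at an unadjusted p under 0.05. At early passage (1 called), 4 were called with quantile normalization and with array weights, 3 in the unscaled table and at the methods' threshold, 2 with a filter on dim probes and with 1 fit over all 12 arrays, and 0 with normexp, the floor, the replicate block and the methods' t-test. At late passage (1 called), 2 were called with the filter, array weights and the methods' t-test, and 0 with normexp, in the unscaled table and with the replicate block. Fits without 1 array each gave 2 to 3 calls pooled (the third was Dhh, 1.54, without late Dunn replicate 3), 0 to 2 calls at early passage and 0 to 1 at late passage. The passage comparisons and the interaction gave 0 calls under each setting.

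With passages pooled, signs turned with normexp for Ihh (-0.23, and -0.53 at early passage), Dhh (-0.99), Gli2 (-0.96) and Ptch1 (-0.04), in the unscaled table for Smo (0.26) and Sufu (1.07), and for Sufu also with the mean of its 2 probes (0.52), with the 75th percentile over the bright probes (0.25), with array weights (0.0079) and in 1 of 12 fits without 1 array (0.04). Normexp's added constant and the floor (-3.39, above most Ihh values) compress dim probes by construction, and the floor left Ihh at 0.24 pooled. With normexp the median difference over all probes was itself -1.16 pooled and -1.58 at early passage. The normexp values of Ihh, Dhh, Gli2 and Ptch1 lay above that median. Set against the normexp median of the bright probes (-0.32 pooled), Ihh was 0.09 and Ptch1 0.28, while Dhh was -0.67 and Gli2 -0.64. At early passage Ihh was -0.17 against that of the bright probes. Without slide 1, chosen after the data were seen, Ihh was 2.42 (adjusted p = 0.00372), Smo -0.98 (adjusted p = 0.0619) and Gli2 2.03 (adjusted p = 0.0301). Shh has no value under the filter, since its probe did not pass it. Apart from the settings named, the cause was not tested. Dim signals limit Shh, Dhh and Gli2, and the number of arrays limits all values.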
